A study of Rattus norvegicus with 6 samples.

Results

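The proteasome genes are the protein-coding rows of the deposited gene table whose symbol begins with Psma to Psmg followed by a digit. The rule matched 49 of 34170 genes, and 46 of them had a mean of at least 0.5 FPKM (sequenced fragments divided by gene length and by library size) and were tested. They comprise 14 genes of the constitutive 20S core, 3 genes of the immunoproteasome (Psmb8, Psmb9 and Psmb10), 17 genes of the 19S regulatory particle and 15 others, of which 12 were tested. The others are activators, an inhibitor, assembly chaperones, 2 tissue-specific core genes and Psmc3ip, whose symbol fits the pattern although it encodes a factor of meiotic recombination. The members of each class were assigned by symbol, with no use of the measured values.

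The retinas came from 6 male Sprague-Dawley rats, profiled by sequencing of polyadenylated RNA. The 3 diabetic rats were given streptozotocin, which kills the beta cells of the pancreas, intraperitoneally at 60 mg/kg on 5 days after fasting for 12 h, and animals above 16.7 mmol/L of blood glucose 1 week later were taken as diabetic. The 3 control rats, labelled WT, were given citrate buffer. Labelled weights were 100.4 to 104 g in the diabetic and 103.4 to 110.5 g in the control rats, and neither age nor the interval before the retinas were taken is stated in the sources.

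The proteasome degrades proteins that carry chains of ubiquitin. Its 20S core is a barrel of stacked rings, with alpha subunits at the ends that gate the entrance and beta subunits inside, 3 of which cut peptide bonds. The 19S particle caps the barrel, binds ubiquitin chains, removes them and unfolds the substrate with a ring of ATPases. In cells exposed to interferon the catalytic beta subunits are replaced by Psmb8, Psmb9 and Psmb10, which changes the peptides produced for antigen presentation. Photoreceptors renew their outer segments daily and make large amounts of protein, and proteasome activity is one of the routes by which they dispose of misfolded opsin.

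The libraries held 18330641, 16277864 and 19115426 fragments in diabetic 1, 2 and 3 and 16941864, 12417686 and 13035314 in control 1, 2 and 3, rebuilt from the deposited FPKM. The retinal label fitted its markers, with a summed level of 7 rod genes of 27969.6 to 32453 FPKM in the diabetic libraries, against 33345 to 37342 FPKM in the control libraries. As a share of each library's summed FPKM the rod genes overlapped, at 5.98% to 6.49% in the diabetic and 6.39% to 7.06% in the control libraries. In bulk tissue, fewer cells of a type and less RNA per cell cannot be told apart. The summed level of 5 lens crystallin genes was 356 FPKM in control 3, against 7.29 to 41.8 FPKM in the diabetic libraries and 8.75 and 39.0 FPKM in control 1 and 2. Control 3 was also the lowest of the 3 controls for 37 of the 46 tested proteasome genes, a share not counted over all tested genes. Among the 3916 tested genes of 998 to 1900 nt, control 3 likewise had the lowest median of the controls. The part of lens tissue in the levels of the proteasome genes was not tested.

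Proteasome genes were lower in diabetic than in control retina in 43 of 46 cases, by small amounts, and no single gene passed the test over all genes. The median log2 difference of the 46 was -0.25, against 0.0003 over all 16363 tested genes, of which 49.9% were negative. Among the 3916 tested genes of 998 to 1900 nt, 64.5% were negative. With the libraries rescaled to sum alike (TPM), 34 of the 46 and 5134 of all tested genes were negative. Under quantile normalization these counts were 38 and 8266. On the FPKM scale the differences ran from -0.79 for Psmg3, which encodes a chaperone of core assembly, to 0.39 for the immunoproteasome gene Psmb9. At an unadjusted p below 0.05 in limma, 22 of the 46 were lower and 0 were higher, where over all tested genes 10.7% were lower and 9.15% higher. At a Benjamini-Hochberg adjusted p of 0.05 over all tested genes, 0 of 46 passed by limma and 0 by voom on the rebuilt fragments, where 0% of all tested genes passed by limma and 2 genes by voom. The smallest adjusted p of a member was 0.130, for Psmc5. Every diabetic library lay below every control library in 18 of the 46 and above in 0, where this held for 13.6% and 12.7% of all tested genes. The members share 6 animals and are not independent of each other, so their number adds no replicates.

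By library, the median of the 46 against the control mean on the log2 scale was -0.19, -0.31 and -0.21 in diabetic 1, 2 and 3, against 0.07, 0.09 and -0.15 in control 1, 2 and 3. Control 3 lay just above the diabetic libraries and well under the other 2 controls. The 3916 tested genes of 998 to 1900 nt had the same order of libraries. Their medians were -0.08, -0.12 and -0.09 in diabetic 1, 2 and 3, against 0.01, 0.05 and -0.05 in control 1, 2 and 3. Without control 3, 33 of the 46 were lower at that unadjusted p, beside 13.01% of all tested genes, with a median of -0.34, and the smallest adjusted p of a member was 0.0564 in limma. Without diabetic 2, in which 26 of the 46 had their lowest value, the count was 11, beside 6.96% of all tested genes. It was 13 without control 1, beside 8.71%, and 10 without control 2, beside 7.01%, and 25 of the 46 had their highest value in control 2. The shares of genes lowest in diabetic 2 or highest in control 2 were not counted over all tested genes. The summed FPKM was 467488 to 500107 in the diabetic and 514771 to 552093 in the control libraries, without overlap. Rescaling to TPM, which makes these sums alike, shifted the median of all tested genes to 0.13 and that of the proteasome genes to -0.12. The count under TPM was 7 lower, beside 4.23% of all tested genes. Under quantile normalization it was 12, beside 8.71%.

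**Figure D1:**
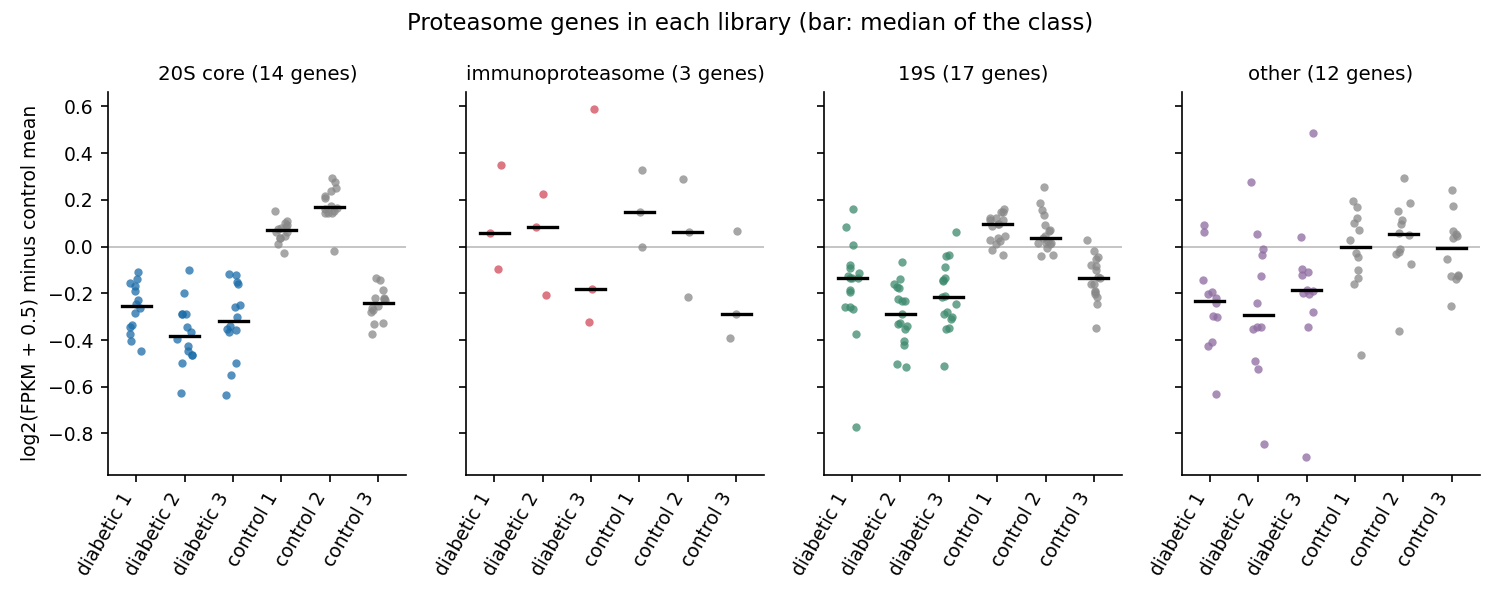
Each point is a tested proteasome gene in 1 library, as log2(FPKM + 0.5) minus the mean of the 3 control libraries, in panels for the 14 core, 3 immunoproteasome, 17 regulatory particle and 12 other genes, with a bar at the median. The core medians were -0.26, -0.38 and -0.32 in diabetic 1, 2 and 3, against 0.07, 0.17 and -0.24 in control 1, 2 and 3, and control 3 lay just above the diabetic libraries and apart from the other controls.

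All 14 genes of the constitutive core had negative log2 differences (13 of 14 under TPM and 13 under quantile normalization), with a median of -0.32 and a range from -0.54 to -0.11. At an unadjusted p below 0.05, 9 of 14 were lower, 6 of the 7 beta and 3 of the 7 alpha genes, and 0 passed over all genes. Without control 3, 7 of the 7 beta and 7 of the 7 alpha genes were lower at that p. Although the subunits stand in equal numbers in the assembled barrel, the messenger RNA levels per length spread widely, with means over the 6 libraries from 31.4 FPKM for Psma4 to 184 FPKM for Psma7.

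Psmb4, a structural beta subunit, had the most negative difference of the core. It measured 146, 128 and 136 FPKM in diabetic 1, 2 and 3, against 204, 243 and 158 FPKM in control 1, 2 and 3. No diabetic library reached a control library, and control 3 was the lowest control. The log2 difference was -0.54 with a standard error of 0.15 (adjusted p = 0.154, limma). Psma4, an alpha subunit and the least abundant core gene, measured 28.6, 27.0 and 23.2 FPKM in the diabetic libraries, against 35.7, 41.0 and 32.9 FPKM in the control libraries. Its groups did not overlap either, and its log2 difference was -0.47 with a standard error of 0.11 (adjusted p = 0.137, limma).

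Among the 3 catalytic genes of the constitutive core, Psmb6, the caspase-like subunit, measured 119, 109 and 106 FPKM in the diabetic libraries, against 159, 166 and 128 FPKM in the control libraries. Psmb5, the chymotrypsin-like subunit and the main target of the drug bortezomib, measured 61.7, 57.0 and 56.7 FPKM in the diabetic libraries, against 74.8, 80.2 and 63.6 FPKM in the control libraries. Psmb7, the trypsin-like subunit, measured 34.3, 34.2 and 35.1 FPKM in the diabetic libraries, against 46.6, 41.3 and 38.1 FPKM in the control libraries. As in 13.6% of all tested genes, every diabetic library was below every control library in all 3 of these. Their log2 differences were -0.43, -0.31 and -0.27, with 95% intervals of -0.70 to -0.17, -0.54 to -0.07 and -0.48 to -0.06, and limma gave adjusted p values of 0.142, 0.177 and 0.177. Psmb7 overlaps Nek6 on the opposite strand, at a mean of 7.24 FPKM, and the kit is not stated to mark strand, so reads of such partners cannot be told apart.

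In the most abundant core genes the control group was split. Psma7, an alpha subunit, measured 156, 149 and 172 FPKM in the diabetic libraries, against 211, 243 and 170.5 FPKM in the control libraries. Psmb1, a beta subunit, measured 167, 142 and 159 FPKM in the diabetic libraries, against 213, 239.6 and 159 FPKM in the control libraries. In both, control 3 fell inside the diabetic range, while control 1 and 2 were above every diabetic library. The log2 differences were -0.37 and -0.37 and did not pass (adjusted p = 0.201 and 0.248, limma), and that of Psmb1 was -0.24 without control 2. Psmb3, another structural beta subunit, did not overlap between the groups, at 95.5, 91.0 and 96.7 FPKM in the diabetic libraries, against 129.7, 144 and 102 FPKM in the control libraries (log2 difference -0.39, adjusted p = 0.177, limma).

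The log2 differences of the 3 immunoproteasome genes lay on both sides of 0, and none of their intervals left 0 out. Psmb8 and Psmb9 lie on chromosome 20 in the major histocompatibility complex, at 3990613 to 3993769 on the plus strand and at 3973420 to 3978845 on the minus strand in the coordinates of the deposited table, whose build the sources do not state. Psmb10 lies on chromosome 19 from 37909546 to 37912027. Psmb9, the interferon-induced replacement of Psmb6, measured 1.11, 0.971 and 1.39 FPKM in the diabetic libraries, against 1.08, 0.816 and 0.462 FPKM in the control libraries. Behind these values stood 25 to 40 fragments in the diabetic and 9 to 28 in the control libraries, so the groups overlapped at low precision and the log2 difference of 0.39 had an interval of -0.21 to 0.98. It was 0.19 without control 3. Psmb8, the replacement of Psmb5, measured 0.636, 0.657 and 0.461 FPKM in the diabetic libraries, against 0.710, 0.440 and 0.642 FPKM in the control libraries. It rested on 18 to 25 fragments in the diabetic and 11 to 25 in the control libraries, with a log2 difference of -0.01 and an interval of -0.56 to 0.54. Psmb10, the replacement of Psmb7, was the only 1 of the 3 above 2 FPKM, at 14.7, 13.5 and 12.4 FPKM in the diabetic libraries, against 15.7, 19.3 and 12.8 FPKM in the control libraries (log2 difference -0.21, interval -0.57 to 0.15). That of Psmb10 was -0.35 without control 3, at an unadjusted p of 0.0303 in limma, and -0.06 without control 2. None passed (adjusted p = 0.434, 0.982 and 0.484 for Psmb9, Psmb8 and Psmb10, limma), and whether they differ from the core genes was not tested.

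Set against its constitutive counterpart, each immunoproteasome gene gives a ratio that does not depend on library scaling. As a percentage of Psmb6, Psmb9 stood at 0.928%, 0.892% and 1.31% in diabetic 1, 2 and 3, against 0.679%, 0.491% and 0.360% in control 1, 2 and 3. The diabetic ratios were all above the control ratios, on the small fragment numbers of Psmb9 given above. By itself Psmb6 did not overlap between the groups, while Psmb9 did. How often such ratios separate over all genes was not counted. With 717 nt in Psmb6 and 1520 nt in Psmb9, the ratio keeps any length trend of a library. As a percentage of Psmb5, Psmb8 stood at 1.03%, 1.15% and 0.813% in diabetic 1, 2 and 3, against 0.950%, 0.549% and 1.01% in control 1, 2 and 3, and the groups overlapped. As a percentage of Psmb7, Psmb10 stood at 42.8%, 39.5% and 35.4% in diabetic 1, 2 and 3, against 33.7%, 46.6% and 33.5% in control 1, 2 and 3, again with overlap. The messenger RNA of each pair was mostly that of the constitutive gene in all 6 libraries.

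**Figure D2:**
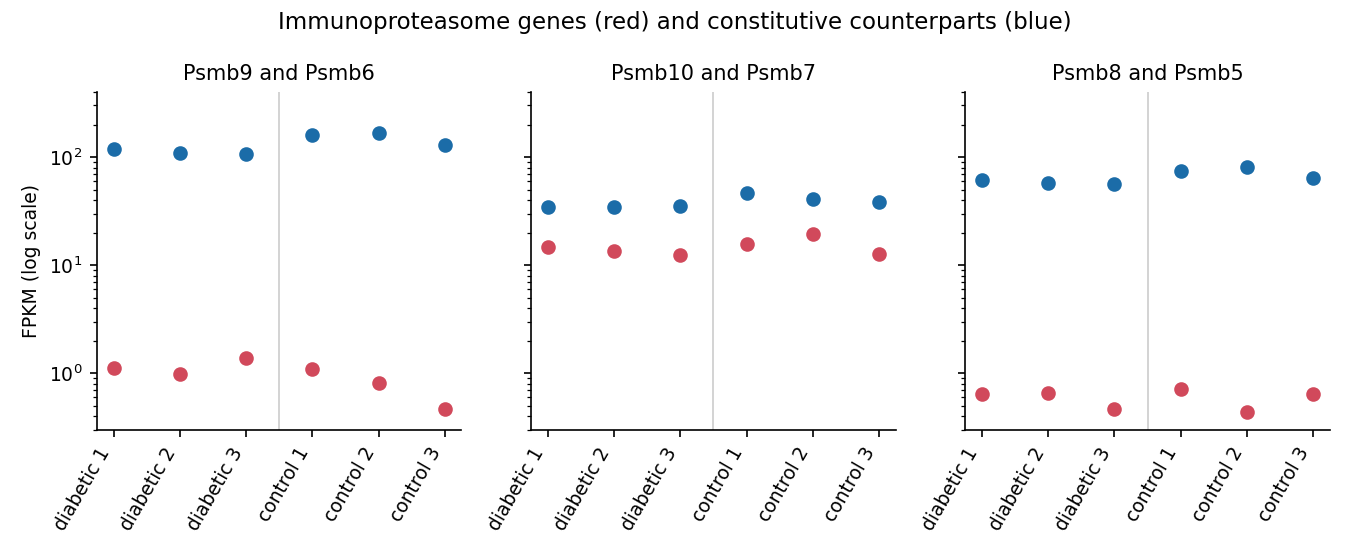
FPKM of each immunoproteasome gene (red) and its constitutive counterpart (blue) in the 6 libraries, on a log axis, diabetic libraries left of the line. Psmb9 and Psmb8 lie between 0.440 and 1.39 FPKM and their counterparts between 56.7 and 166 FPKM, while Psmb10 lies between 12.4 and 19.3 FPKM.

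Promoters are shown for the 2 pairs in which the immunoproteasome gene is scarce, so that the constitutive and the inducible gene of a pair can be read side by side. RefSeq promoter windows of 300 bases, 250 before and 50 after the start in build GRCr8, were found for 44 of the 49 genes. Both strands were searched for TGACNNNGC, the core of the antioxidant response element bound by NFE2L1 and NFE2L2, for CCAAT, and for GAAA, any pair of bases and GAAA, the core of the interferon-stimulated response element. Capitals mark every match. The order and strands of Psmb8 and Psmb9 on chromosome 20 are reversed in GRCr8 relative to the deposited table. The windows lie at chr15:32047330-32047629 on the minus strand, chr20:4656982-4657281 on the minus strand, chr10:55737638-55737937 on the plus strand and chr20:4668750-4669049 on the plus strand.
Psmb5: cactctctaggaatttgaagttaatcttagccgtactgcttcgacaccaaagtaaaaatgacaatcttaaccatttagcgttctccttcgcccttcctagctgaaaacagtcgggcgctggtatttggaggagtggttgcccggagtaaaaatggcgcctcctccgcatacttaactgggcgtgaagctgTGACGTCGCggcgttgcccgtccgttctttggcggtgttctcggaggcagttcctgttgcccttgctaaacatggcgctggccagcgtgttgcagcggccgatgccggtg
Psmb8: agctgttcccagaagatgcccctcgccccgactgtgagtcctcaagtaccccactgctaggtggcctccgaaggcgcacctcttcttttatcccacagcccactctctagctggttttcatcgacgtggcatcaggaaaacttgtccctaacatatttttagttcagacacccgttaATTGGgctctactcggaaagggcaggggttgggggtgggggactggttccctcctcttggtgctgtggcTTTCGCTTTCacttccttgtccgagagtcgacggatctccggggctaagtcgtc
Psmb6: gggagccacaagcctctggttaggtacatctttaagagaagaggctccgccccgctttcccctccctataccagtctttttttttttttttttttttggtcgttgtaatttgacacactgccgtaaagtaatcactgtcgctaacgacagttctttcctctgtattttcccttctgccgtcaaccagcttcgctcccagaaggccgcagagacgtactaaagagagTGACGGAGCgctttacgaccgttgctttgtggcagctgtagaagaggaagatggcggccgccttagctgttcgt
Psmb9: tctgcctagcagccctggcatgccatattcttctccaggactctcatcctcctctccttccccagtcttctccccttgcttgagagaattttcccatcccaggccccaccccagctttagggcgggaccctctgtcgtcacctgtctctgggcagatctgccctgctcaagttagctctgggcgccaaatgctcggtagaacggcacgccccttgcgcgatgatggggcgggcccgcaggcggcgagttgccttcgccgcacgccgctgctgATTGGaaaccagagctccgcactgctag

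The antioxidant response element core was present once each in the windows of Psmb5 and Psmb6 and absent from those of Psmb8 and Psmb9. It was found in 4 of 13 (30.8%) core, 2 of 14 (14.3%) regulatory particle and 0 of 3 immunoproteasome windows, against 12.1% of all 33469 windows. The interferon-stimulated element core was found in the windows of Psmb8 and Psmb10 but not in that of Psmb9. It was also found in 2 of 13 (15.4%) core, 1 of 14 regulatory particle and 2 of 14 other windows, and in 3.92% of all. CCAAT was found in 9 of 13 (69.2%) core, 2 of 3 immunoproteasome and 5 of 14 (35.7%) regulatory particle windows, against 37.5% of all. These counts describe letters in a window and not binding.

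All 17 genes of the 19S regulatory particle had negative log2 differences (11 of 17 under TPM and 13 under quantile normalization), with a median of -0.24 and a range from -0.44 to -0.06. The 6 genes Psmc1 to Psmc6 encode the ring of ATPases that unfolds substrates and feeds them into the barrel. In these the median was -0.37, 6 of 6 were lower at an unadjusted p below 0.05 and the groups did not overlap in 5 of 6. In the 11 Psmd genes of this class, which encode scaffold subunits, ubiquitin receptors and the deubiquitinase, the median was -0.13, 2 of 11 were lower and the groups did not overlap in 2. Over all tested genes 10.7% were lower at that p, and 13.6% had every diabetic library below every control library. Without control 3, 6 of the 11 Psmd and 6 of the 6 ATPase genes were lower, beside 13.01% of all tested genes. Under TPM the medians of the Psmd and ATPase genes were 0.00400 and -0.23. This split into subclasses was chosen after values were seen. None of the 17 passed over all genes, and whether the ATPases differ from the rest was not tested.

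Psmc5, the most abundant gene of the regulatory particle, measured 97.2, 94.0 and 102 FPKM in diabetic 1, 2 and 3, against 137, 123 and 119 FPKM in control 1, 2 and 3. It had the smallest adjusted p of all proteasome genes, with a log2 difference of -0.37 and a standard error of 0.08 (adjusted p = 0.130, limma). A small RNA gene on the same strand, RF00432, overlaps Psmc5, at a mean of 10.2 FPKM. Psmc2 measured 82.8, 69.3 and 69.6 FPKM in the diabetic libraries, against 108, 109 and 83.5 FPKM in the control libraries. Psmc4 measured 61.8, 55.8 and 60.8 FPKM in the diabetic libraries, against 72.0, 71.8 and 68.5 FPKM in the control libraries. The groups did not overlap in any of these, with log2 differences of -0.43 for Psmc2 and -0.25 for Psmc4 (adjusted p = 0.163 and 0.157, limma). Psmc3 measured 39.9, 58.1 and 55.2 FPKM in the diabetic libraries, against 73.3, 70.3 and 62.4 FPKM in the control libraries, so diabetic 1 alone was much lower than the other libraries (log2 difference -0.44, or -0.27 without it, adjusted p = 0.188, limma). Psmc6 did not overlap between the groups either, at a log2 difference of -0.37, or -0.24 without control 2.

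Of the non-ATPase genes, Psmd8, a lid subunit, measured 51.6, 47.0 and 48.9 FPKM in the diabetic libraries, against 64.4, 69.4 and 54.1 FPKM in the control libraries, without overlap (log2 difference -0.34, adjusted p = 0.168, limma). Psmd14, the metalloprotease that cuts ubiquitin chains from the substrate, was the least abundant of the 17. It measured 36.5, 28.7 and 29.3 FPKM in the diabetic libraries, against 36.1, 32.9 and 29.1 FPKM in the control libraries, and the groups overlapped, with a log2 difference of -0.06 (above 0 under TPM and quantile normalization) and an interval of -0.35 to 0.24. Psmd2, the scaffold that docks ubiquitin carriers, measured 57.7, 51.3 and 56.0 FPKM in the diabetic libraries, against 58.5, 57.0 and 56.5 FPKM in the control libraries. Its log2 difference of -0.06 (above 0 under TPM and quantile normalization) had an interval of -0.23 to 0.11.

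**Figure D3:**
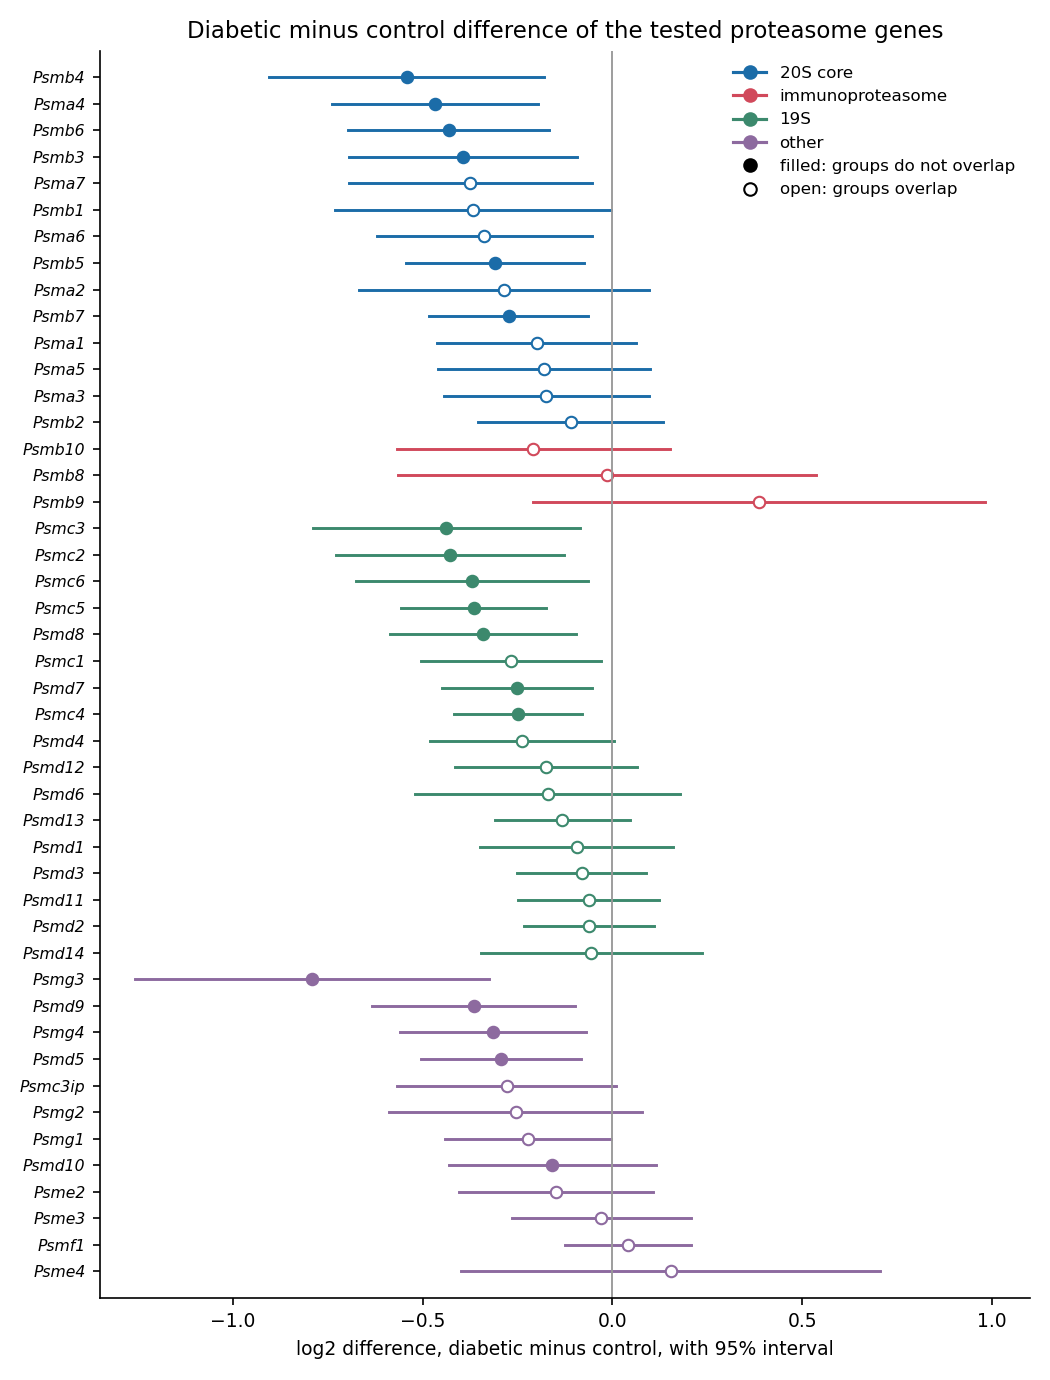
Log2 difference, diabetic minus control, of the 46 tested proteasome genes with the 95% interval from limma, grouped by class and ordered within each. Filled points mark the 18 genes whose groups do not overlap, all of them on the negative side, and the 3 genes right of 0 are Psmb9, Psme4 and Psmf1.

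The assembly chaperones had negative differences in all 7 cases tested. Psmg1 to Psmg4 pair up to build the alpha ring. At an unadjusted p below 0.05, 3 of the 4 were lower, beside 10.7% of all tested genes. Psmg3 measured 23.0, 19.7 and 18.95 FPKM in diabetic 1, 2 and 3, against 25.8, 44.0 and 40.4 FPKM in control 1, 2 and 3. Control 2 and 3 were far above the diabetic libraries, while control 1 was only slightly above them. The log2 difference of -0.79 was the most negative of all members, with a standard error of 0.20 (adjusted p = 0.138, limma). Its partner Psmg4 measured 30.4, 34.5 and 33.6 FPKM in the diabetic libraries, against 37.3, 46.7 and 39.4 FPKM in the control libraries (log2 difference -0.32, adjusted p = 0.181, limma). In Psmg3 and Psmg4 control 3 was not the lowest control, whereas in Psmg1 and Psmg2 it was.

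Psmd5, Psmd9 and Psmd10 carry subunits of the ATPase ring during assembly and leave the finished particle. Psmd5 measured 26.8, 24.1 and 24.1 FPKM in the diabetic libraries, against 31.3, 32.8 and 28.1 FPKM in the control libraries. Psmd9 measured 15.5, 14.6 and 18.0 FPKM in the diabetic libraries, against 18.5, 22.5 and 21.4 FPKM in the control libraries. Psmd10, known as the oncoprotein gankyrin, was the least abundant gene tested outside the immunoproteasome, at 3.90, 4.27 and 4.33 FPKM in the diabetic libraries, against 4.36, 4.88 and 4.90 FPKM in the control libraries. Psmd10 rested on 38 to 43 fragments in the diabetic and 31 to 39 in the control libraries. As in 13.6% of all tested genes, every diabetic library was below every control library in FPKM in all 3 genes. The gap of Psmd10 was small at that depth. The log2 differences were -0.29, -0.37 and -0.16 (adjusted p = 0.167, 0.170 and 0.483, limma).

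The activators and the inhibitor showed no common direction. Psme4, a large activator that opens the core without ATP, measured 19.5, 29.4 and 34.1 FPKM in the diabetic libraries, against 26.3, 18.7 and 28.7 FPKM in the control libraries, and the groups overlapped (log2 difference 0.15, interval -0.40 to 0.71). Diabetic 1 and control 2 were the 2 lowest libraries. Psmf1, which binds the core and was first described as its inhibitor, measured 29.4, 27.3 and 28.3 FPKM in the diabetic libraries, against 27.0, 27.4 and 28.3 FPKM in the control libraries (log2 difference 0.04, interval -0.12 to 0.21). This was among the steadiest members, within 27.0 and 29.4 FPKM in all 6 libraries. Psme2, the interferon-induced beta chain of an activator ring, measured 17.6, 20.0 and 18.0 FPKM in the diabetic libraries, against 23.6, 19.5 and 18.9 FPKM in the control libraries (log2 difference -0.15, or -0.05 without control 1, adjusted p = 0.484, limma). Psme3, its nuclear relative, measured 16.3, 16.2 and 13.5 FPKM in the diabetic libraries, against 15.1, 15.3 and 16.3 FPKM in the control libraries, and it overlaps a further annotated gene on the same strand, AC123346.1, at a mean of 1.23 FPKM. Psmc3ip measured 18.8, 18.1 and 20.4 FPKM in the diabetic libraries, against 24.97, 25.8 and 19.4 FPKM in the control libraries, with overlap.

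For 3 members the mean was below 0.5 FPKM, and they were not tested. Psme1, the alpha chain that pairs with Psme2, held 5 to 7 fragments in the diabetic and 1 to 9 in the control libraries, and it overlaps Emc9 on the opposite strand. Its partner Psme2 had a mean of 19.6 FPKM. The RefSeq table for build GRCr8 names 3 copies of Psme1 and 3 of Psme2. Whether reads were divided among such copies was not tested, and the values are uncertain to that extent. Psmb11, the core gene of the thymus, held 1 to 2 fragments in the diabetic and 0 to 1 in the control libraries. Psma8, the core gene of the testis, held 1 to 2 in the diabetic and 0 to 6 in the control libraries. Psmb11 was thus within the floor of 3 fragments in all 6 libraries, and Psma8 in all but control 3. In all, 19 of the 49 genes have between 1 and 10 copies named in that table, 52 together, among them Psmb3 with 10 and Psma6 with 5, and the values of these genes are uncertain to that extent.

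The proteasome genes were shorter and more abundant than most tested genes, and among the tested genes log2 differences varied with both properties. Their median length was 1394 nt, against 2100.0 nt over all tested genes, and their median level was 49.6 FPKM, against 8.80 FPKM. Among the 46, Spearman's correlation of the log2 difference with length was 0.41 and with the mean level -0.50, across genes that share the same 6 libraries. The 3916 tested genes of 998 to 1900 nt, the middle 50% of the members' lengths, had a median of -0.09 and 17.2% lower at an unadjusted p below 0.05. Of these, the 2153 with a mean of at least 10 FPKM had a median of -0.15 and 27.2% lower. The share of the 46 proteasome genes was 22 of 46, and its difference from these genes was not tested.

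With the length trend of each library removed, 41 of 46 members stayed negative, the median was -0.15 and 16 were lower at an unadjusted p below 0.05, beside 9.26% of all tested genes. The class medians were then -0.23 in the core and -0.15 in the regulatory particle, with 5 of 6 ATPase genes lower and a median of -0.31 in these. Psma4, with 3909 nt the longest core gene, was at -0.54 after this step, and Psmb4, with 839 nt, at -0.41.

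**Figure D4:**
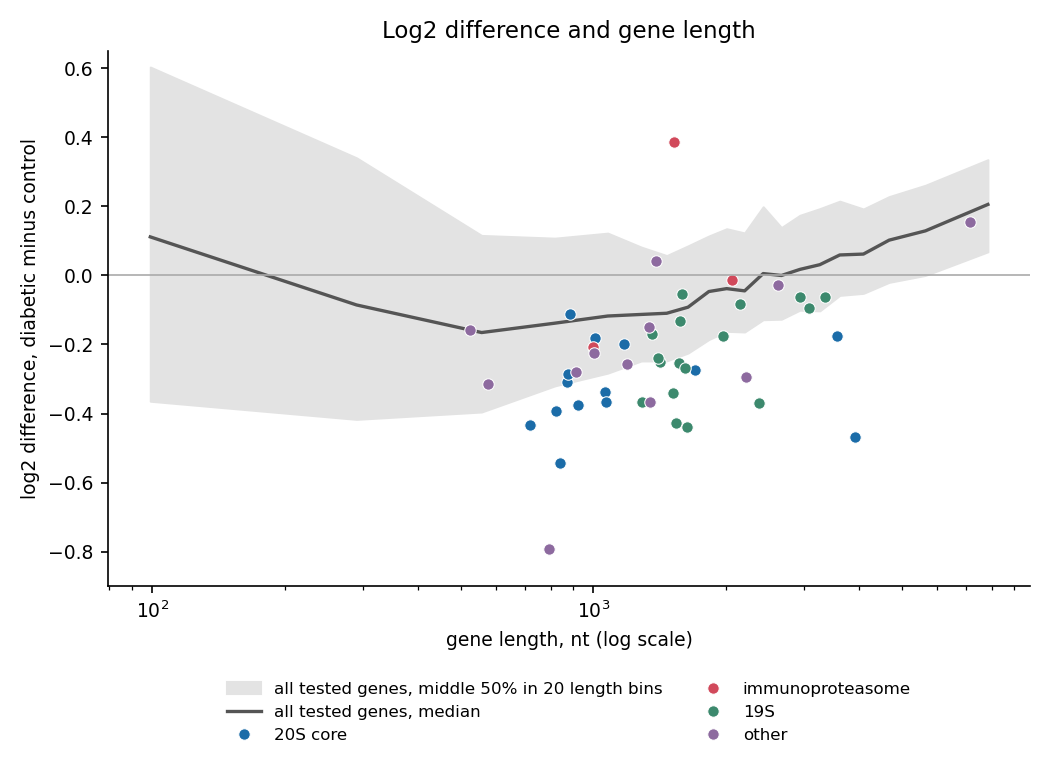
Log2 difference, diabetic minus control, against gene length on a log axis for the 46 tested proteasome genes by class. The grey line and band give the median and middle 50% of all tested genes in 20 bins of length, from a median of -0.17 in the bin around 558 nt to 0.21 in the bin around 7837 nt, and most core and regulatory particle genes lie below the line.

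Proteasome genes outside the naming rule, with receptors and shuttle factors that bring substrates, were lower in 12 of 17 cases, with a median of -0.13. Under TPM 9 of 17 were negative with a median of -0.00121, and under quantile normalization 10. At an unadjusted p below 0.05, 4 of 17 were lower and 0 higher, beside 10.7% and 9.15% of all tested genes, with 0 past the threshold over all genes. Adrm1, a ubiquitin receptor of the 19S particle, measured 34.3, 38.8 and 37.3 FPKM in the diabetic libraries, against 43.6, 43.7 and 44.1 FPKM in the control libraries. Its groups did not overlap (log2 difference -0.25, adjusted p = 0.160, limma). Zfand5, a zinc finger protein that stimulates the proteasome, measured 75.5, 67.9 and 64.2 FPKM in the diabetic libraries, against 87.2, 91.2 and 84.8 FPKM in the control libraries (log2 difference -0.34, adjusted p = 0.137, limma). Sem1, the smallest 19S subunit, measured 49.2, 47.2 and 42.0 FPKM in the diabetic libraries, against 64.1, 77.4 and 50.2 FPKM in the control libraries, with control 3 again the lowest control (log2 difference -0.45, adjusted p = 0.193, limma). Pomp, the maturation factor of the core, measured 0.821, 4.53 and 0.827 FPKM in the diabetic libraries, against 1.42, 1.64 and 2.33 FPKM in the control libraries. The gene LOC100911238, described in the deposited table as like the maturation protein, measured 22.4, 14.1 and 19.9 FPKM in the diabetic libraries, against 73.8, 35.8 and 26.2 FPKM in the control libraries and did not overlap between the groups. It was chosen after its values were seen, and its reads cannot be told apart from those of Pomp here.

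The list of factors that control proteasome genes showed no common direction, with 6 of 11 negative and a median of -0.04. At an unadjusted p below 0.05, 1 was lower and 1 higher, beside 10.7% and 9.15% of all tested genes. Nfe2l1, the transcription factor that raises proteasome genes when the proteasome is inhibited, measured 27.9, 23.6 and 23.1 FPKM in the diabetic libraries, against 22.7, 26.0 and 24.1 FPKM in the control libraries, and the groups overlapped (log2 difference 0.03, interval -0.20 to 0.27). Nfe2l2, the related factor of the antioxidant response, measured 17.9, 18.5 and 24.9 FPKM in the diabetic libraries, against 13.5, 13.3 and 11.6 FPKM in the control libraries. Every diabetic library was above every control library, and the log2 difference was 0.64 with a standard error of 0.14 (adjusted p = 0.129, limma). Nfyb, a subunit of the factor that binds CCAAT boxes, measured 55.4, 56.0 and 58.3 FPKM in the diabetic libraries, against 65.7, 74.9 and 66.0 FPKM in the control libraries (log2 difference -0.28, adjusted p = 0.151, limma). None of these genes passed over all genes, and under TPM 3 of 11 were negative with a median of 0.10.

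Upstream of the proteasome, genes of ubiquitin, its activating and conjugating enzymes and the p97 unfoldase were lower in 23 of 36 cases, with a median of -0.08. The majority and the sign of the median turned under TPM, with 12 of 36 negative and a median of 0.05, and 12 of 36 were negative under quantile normalization. At an unadjusted p below 0.05, 8 of 36 were lower and 0 higher, beside 10.7% and 9.15% of all tested genes. Of the tested genes of 998 to 1900 nt, 64.5% were negative and 17.2% were lower at that p, or 27.2% of those with a mean of at least 10 FPKM. Ube2j2 and Ube2g2, conjugating enzymes of protein disposal from the endoplasmic reticulum, had the smallest p. Ube2j2 measured 49.8, 51.2 and 49.5 FPKM in the diabetic libraries, against 59.2, 67.4 and 62.4 FPKM in the control libraries (log2 difference -0.32, adjusted p = 0.131, limma). Ube2g2 measured 25.4, 26.5 and 24.9 FPKM in the diabetic libraries, against 31.3, 31.9 and 30.4 FPKM in the control libraries (log2 difference -0.28, adjusted p = 0.137, limma). The groups did not overlap in either gene. The polyubiquitin gene Ubb, the most abundant of this list, measured 836, 860.5 and 941 FPKM in the diabetic libraries, against 939.9, 1136 and 974 FPKM in the control libraries (log2 difference -0.21, above 0 under quantile normalization, adjusted p = 0.359, limma).

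Of the list of antigen processing and interferon genes, which holds genes that interferon induces together with the immunoproteasome, 14 were tested, with 4 negative, a median of 0.14, and 0 lower and 1 higher at an unadjusted p below 0.05. The median of the list was 0.03 without control 3. Over all tested genes 10.7% were lower and 9.15% higher at an unadjusted p below 0.05. Stat2, a transducer of interferon signals, measured 13.4, 13.8 and 14.6 FPKM in the diabetic libraries, against 12.5, 11.8 and 11.3 FPKM in the control libraries, without overlap (log2 difference 0.23, adjusted p = 0.214, limma). Its partner Irf9 measured 14.3, 15.2 and 20.8 FPKM in the diabetic libraries, against 15.6, 8.69 and 12.7 FPKM in the control libraries (log2 difference 0.45, or 0.22 without control 2, adjusted p = 0.326, limma). Tap1, the peptide transporter gene beside Psmb9, measured 0.419, 0.714 and 1.45 FPKM in the diabetic libraries, against 0.922, 0.480 and 0.453 FPKM in the control libraries, with overlap. Ifng, the interferon gamma gene, was listed at 0 in all 6 libraries. The summed level of 12 microglial genes was 23.6 to 29.8 FPKM in the diabetic and 26.4 to 44.4 FPKM in the control libraries, and that of 9 leukocyte genes was 1.46 to 2.64 FPKM in the diabetic and 0.590 to 2.38 FPKM in the control libraries, with Gzmb, a gene of cytotoxic cells, listed at 0 throughout. The part of these cells in the levels of Psmb8, Psmb9 and Psmb10 was not tested.

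**Figure D5:**
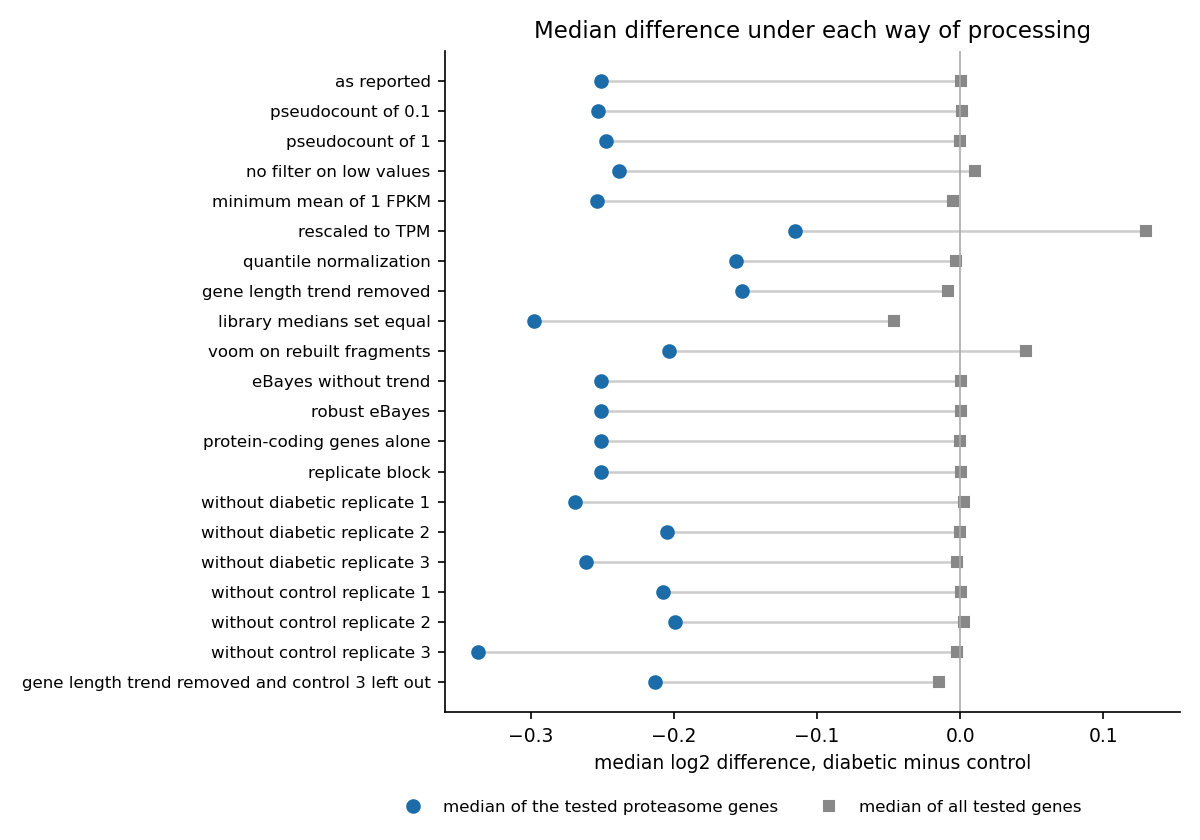
Median log2 difference, diabetic minus control, of the tested proteasome genes (circles) and of all tested genes (squares) as reported and under 20 other ways of processing. The circle lies left of the square in each, by between 0.14 and 0.33 on the log2 scale, and both move right with TPM.

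Under the 20 other ways of processing that were run, the median of the proteasome genes was below that of all tested genes in each. The members' median minus that of all tested genes was -0.25 as reported, and it ran from -0.33 without control 3 to -0.14 with the length trend removed. No member passed an adjusted p of 0.05 in any of them.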

How the data were processed

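The deposited table gives, for each gene and library, FPKM values that the authors computed. HISAT2 2.0.5 is named in the submitters' processing notes, while for the read counter, annotation and reference build the sources used here give no name. Libraries came from polyA RNA and a kit that the labels do not describe as marking strand. FPKM multiplied by gene length and 1 factor per library gave whole fragments for 100% of values (tolerance 0.05 fragments), and these set the depth of each library. Libraries were grouped by their labels, and the numbered animals were weighed separately.

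Genes averaging 0.5 FPKM or more were tested as log2(FPKM + 0.5) with limma 3.58.1 (moderated test with intensity trend) in R 4.3.3, two-sided, with Benjamini-Hochberg adjustment over all 16363 tested genes. Fold differences on this scale understate those of low genes. The fit was tested on simulated data. Summaries and figures used Python 3.11.15, pandas 2.3.3 and matplotlib 3.10.9. Alternatives covered the pseudocount, the filter, scaling, the gene length trend, the model, the replicate block and leaving out each library, and 1 of them, the length trend together with leaving out control 3, was added after seeing the data.

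The members and gene lists were chosen with earlier results of these data known. Named genes were the immunoproteasome genes and their counterparts, the 4 genes of smallest p and those of highest and lowest mean in each other class, and the 2 of smallest p in each further list. Psme4, Psmf1, Psme2, Psme3, Psmc3, Psmc3ip, Pomp, LOC100911238, Psmb1, Psmb3, Psmd2, Psmc6, Nfe2l1, Sem1, Ubb and Tap1 were chosen after their values were seen, as were the subclasses of alpha, beta, ATPase and chaperone genes and the ranges of length and level. Promoters were taken from RefSeq (GRCr8) and matched by symbol.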

Additional observations from a re-analysis of the deposited data

How the results depend on the processing

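Leaving out 1 library at a time gave 0 to 4 genes past the adjusted threshold over all tested genes, 2066 to 4015 at an unadjusted p below 0.05, 10 to 33 lower proteasome genes at that p, and a median of the other class from -0.305 to -0.190. Voom gave 2 genes past the adjusted threshold. The count of lower proteasome genes was 22 as reported, 7 under TPM and 12 under quantile normalization, and 1 was higher with the length trend removed and control 3 left out. The median of all proteasome genes was -0.115 under TPM. That of the 19S class was -0.102 under TPM and -0.101 under quantile normalization. The immunoproteasome median was -0.209 with a minimum of 1 FPKM, where fewer genes are tested. The other class had a median of -0.159 with no filter, -0.106 under TPM, -0.126 with the length trend removed, -0.286 with library medians set equal and -0.147 with the length trend removed and control 3 left out. Log2 differences changed sign under TPM in Psmb8 (0.0790), Psmd14 (0.0808), Psmd2 (0.0745); under quantile normalization in Psmd14 (0.00474), Psmd2 (0.0316), Ubb (0.0511); with the length trend removed in Psmb8 (0.0132), Psmd14 (0.0184), Psme4 (-0.0219); with library medians set equal in Psmf1 (-0.00510), Nfe2l1 (-0.0158); with the length trend removed and control 3 left out in Psmb8 (0.0530), Psmd10 (0.0422), Nfe2l1 (-0.00500). They did so without 1 library in Psmb8 (-0.121 to 0.0712), Psmd14 (-0.164 to 0.0184), Psme4 (-0.0278 to 0.382), Nfe2l1 (-0.0520 to 0.0801), Tap1 (-0.0574 to 0.484), given as the range over the 6. These lists cover only part of the genes and are not complete. Psmb2 (0.0263), Psmd1 (0.0415), Psmd3 (0.0550), Psmd11 (0.0737), Psmd13 (0.00400) and Psme3 (0.106) also turned positive under TPM. So did Psmb2 once the length trend was taken out (0.0194), and Psme3 without control 3 (0.00436). Of the 46 members, 43 were negative as reported, 34 under TPM and 38 after quantile normalization. The cause of the sign changes was not tested. With the replicate block, 19 proteasome genes were lower and 2790 genes over all passed an unadjusted p below 0.05. The numbers share no stated source, and deviations of same-numbered libraries correlated at -0.054, -0.0756 and 0.000607. Depth limits Psmb8, Psmb9, Psmd10 and the untested members.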
